A study of Homo sapiens with 6 samples.

Results

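The strong reverse transcription stops at U that kept their height when the cation was changed were studied in RNA of U2OS, a human osteosarcoma cell line. A stop was called strong when its enrichment E, the stop count at a nucleotide divided by the mean listed count per nucleotide of its transcript, was 10 or more in at least 1 of the 2 libraries made without dimethyl sulfate (DMS). It was called alike when its E values in these libraries, one labelled Na+ and the other K+, differed by at most 1.5-fold, provided that the transcript averaged 1 or more counts per nucleotide in both. By this rule 1221 stops on 284 transcripts were members, out of 884538 listed U positions on 2723 transcripts (0.138%). They were 51.3% of the 2378 U positions that reached E of 10 in either library, and the same rule took 1791 positions at G, 2788 at A and 1028 at C. The E values without DMS chose the members, so those values and their agreement are given only as a description.

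The 6 libraries, 1 per condition, were from polyadenylated RNA of these cells. In the 2 without DMS, RNA was reverse transcribed in 150 mM Na+ or 150 mM K+, and in all the others in 150 mM K+. In 2 libraries the RNA was refolded and DMS-treated in vitro, in 150 mM K+ or 150 mM Li+. In the other 2, living cells were treated with 8% DMS for 5 min, either unstressed or after 2 h of starvation in HBSS, a salt solution. The file names of the pair without DMS gave the opposite cation from the sample labels, which are used here. For this step the study's results compare K+ with Na+, as the labels do, but its methods name K+ or Li+. The second cation of the pair is therefore uncertain. The rule treats both libraries alike. There were no replicates, so no difference between conditions was tested. All intervals are 95% intervals, and none covers variation between replicates. Those of single count ratios cover counting error only, and those of shares and medians take the items counted as independent. Listed stops per library ranged from 12999691 in unstressed cells to 35371061 without DMS in K+, and positions with under 3 stops were not listed. VIM, the intermediate filament of mesenchymal cells, averaged 55.5 stops per nucleotide, SPARC, a bone matrix protein, 9.12 and the bone collagen COL1A1 3.902, whereas RUNX2, SP7 and ALPL were near 0 and COL1A2 and BGLAP were not listed.

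Reverse transcriptase copies RNA from its 3′ side and halts at folds, some modified bases and template ends. A stop is assigned to the nucleotide next to the last one copied. A G-quadruplex is held best by K+, less by Na+ and least by Li+, and the stop it gives tends to weaken in that order. DMS modifies A and C on their base-pairing face and G elsewhere, and leaves U largely unreacted. Some U in mRNA are converted to pseudouridine: TRUB1, the enzyme that modifies the T loop of tRNAs, recognises GTTCNANNC (U written as T) with the altered U as the third base, on a short stem with a loop. Modified bases were not measured in these libraries, and whether any gave a stop described here was not tested.

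Of 963 members whose surroundings could be read from the matched reference, 9 were the third base of GTTCNANNC. The surroundings of 6 are printed because the motif set them apart from other U of the same transcripts. Sequences here are RNA-strand sequences from GENCODE models on hg19 (GRCh37), with U as T, and the 9-base motif is in capitals, the stop being the third base.
PSMB2: aaccttcagtGTTCGAATCattgacaaaaa
NIP7: agaaaaacggGTTCAAACCccacttctgcc
TAF9B: gaaggcctagGTTCTAGTCctagctccatc
FKBP4: cttgcctcaaGTTCCATGCttgagcaataa
SNHG29: ccaacaagagGTTCTATACcttttaatgaa
PRR13: tgccctggagGTTCCAATCctgcccaccca
The coding sequence held those of PSMB2 (chr1:36068917-36068946, minus strand) and PRR13 (chr12:53837213-53837242, plus). The 3′ UTR held those of NIP7 (chr16:69376035-69376064, plus), TAF9B (chrX:77385449-77385478, minus) and FKBP4 (chr12:2913063-2913092, plus). That of SNHG29, a host gene of small nucleolar RNAs, lay in a noncoding RNA (chr17:16345172-16345201, plus).

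Another set of members lay just before an annotated transcript end, and a further set lay inside dense clusters of stops. In the next lines the polyadenylation signal AATAAA, where present, and the stop itself are in capitals.
KIAA1191, near the end: ctcgttttgacAATAAAaatcctTactact
SH3BGRL, near the end: gctttaaAATAAActcagtacttTtagaaa
THOC6, near the end: ttttttacAATAAAgtttcaggcTttttta
RPL27A, in a cluster: tgaagcattaccactTaaagaggaaccaga
NDUFC2, in a cluster: ttgaagtcttcaaaaTgcttgctccagttt
These lie in the 3′ UTR at chr5:175773073-175773102 (minus), chrX:80554012-80554041 (plus), chr16:3077722-3077751 (plus) and, for NDUFC2, chr11:77781007-77781036 (minus). The RPL27A stretch is coding sequence at chr11:8706294-8706323 (plus).

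To see whether a strong stop was a single position or one of many, each E was divided by the mean E of all other positions within 25 nt. Most members stood above their neighbours, but by little. This local ratio had a median of 2.14 (quartiles 1.63 to 2.83) and was 5 or more at 79 members (6.47%, Wilson interval 5.22 to 7.99) on 55 transcripts. It reached 5 at 18.5% of the G, 15.7% of the C and 6.13% of the A stops chosen by the same rule, and at 67.1% of 4018 strong G stops whose E differed over 2-fold between the cations. Another strong position of any base lay within 5 nt of 86.9% of members and directly beside 52.3% of them. "Strong" is therefore used here for height over the transcript mean only, and the 79 are called prominent U stops. Of these 79, 20 had fewer than 10 listed neighbours of 50, among them those with the highest ratios.

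**Figure D1:**
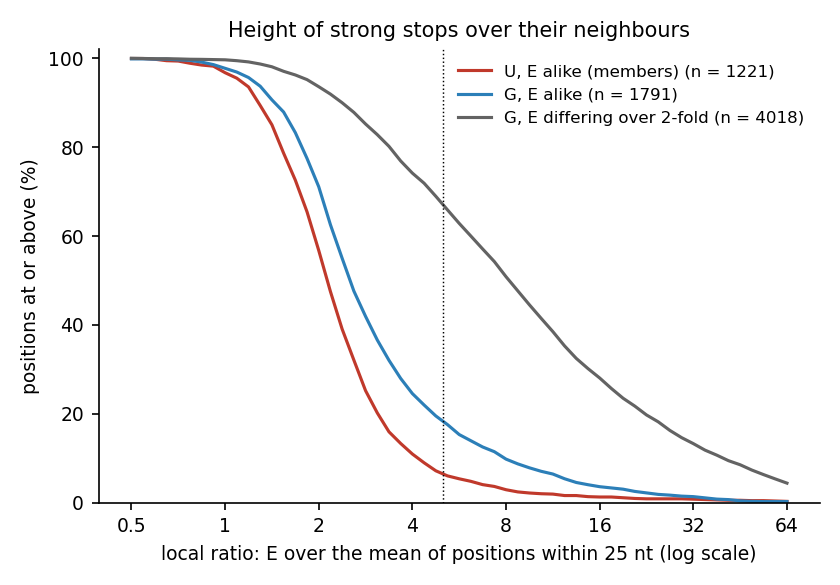
The horizontal axis is the local ratio, E over the mean E of the positions within 25 nt, on a log scale, and the vertical axis is the percentage of positions at or above it. At the dotted line (ratio 5) the curve of the 1221 members is at 6.47%, that of G stops alike in both cations at 18.5% and that of G stops differing over 2-fold at 67.1%.

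The members crowded onto few transcripts and into short stretches of them. The 79 transcripts with 5 or more members held 898 (73.5%), and 4 of them held 153. RPL27A, a protein of the large ribosomal subunit, had 47 members at positions 368 to 811 of a 4871-nt transcript. SERF2 had 36 and NDUFC2, a subunit of respiratory complex I, had 35 within 178 nt of 2463. CD59, the cell surface inhibitor of complement, also had 35, but over 1471 nt.

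On these transcripts the stops were unevenly spread. Of the length of a transcript with a member, a median of 17.2% was listed in both libraries without DMS, against 34.9% for transcripts without one. In 50-nt bins, 90% of stops fell in a median of 38.5% of the length with a member and 71.0% without. For RPL27A it was 9.18%. Since E divides by the mean of the entire transcript, a covered stretch of a sparsely covered transcript has a high E at many positions. How far this sets the number of members was not tested, and the local ratio does not contain that mean.

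At RPL27A position 554, whose sequence is given above, 238 and 263 stops were counted without DMS in Na+ and K+ (E 24.9 and 26.4). There were 34 and 42 in vitro with K+ and Li+, 16 in unstressed and 76 in starved cells. The local ratio of 1.80 shows that its neighbours stopped the enzyme to a similar degree. At NDUFC2 position 847 the counts were 44 and 50 without DMS, 12 with K+, 8 with Li+, 4 in unstressed and 28 in starved cells.

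**Figure D2:**
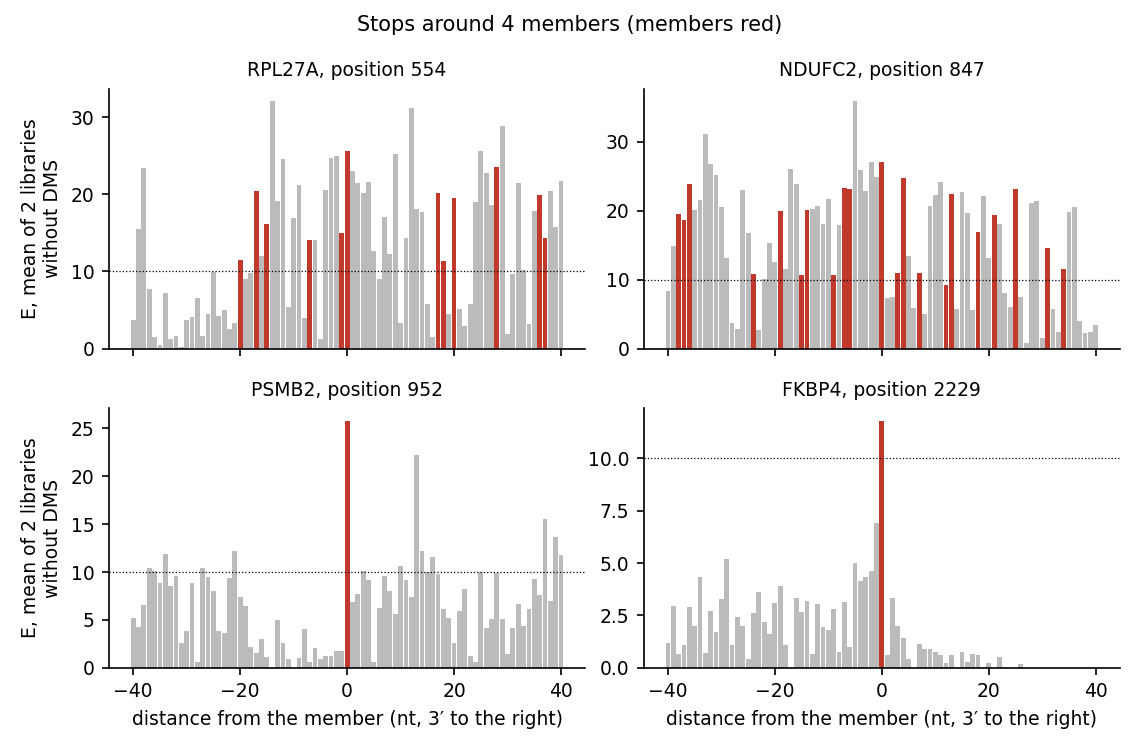
Each panel shows E (mean of the 2 libraries without DMS) at every nucleotide within 40 nt of 1 member, with members in red, other positions in grey and E of 10 dotted; the vertical axes differ. RPL27A position 554 and NDUFC2 position 847 sit among many strong positions, and PSMB2 position 952 and FKBP4 position 2229 stand above the nucleotides on their 5′ side.

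The limits of the rule cut through values that counting error does not separate. Just inside, RALY positions 667 and 730 had E of 10.0, and just under it HNRNPA3 position 361 had 9.996 and 8.38. MARCHF5 position 1404, inside the 1.5-fold limit, had 11 and 8 counts, and CHORDC1 position 1664, outside it at 1.5008-fold, had 17 and 28. Over all members the counts without DMS ran from 8 to 553 in Na+ and 8 to 568 in K+, with a median of 24 in each.

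The motif GTTCNANNC was searched on the RNA strand, with the stop at the third base. It surrounded 9 of 963 members (0.935%, Wilson interval 0.493 to 1.77) and 6 of 52 prominent ones (11.5%). Of the other listed U of the same transcripts 4 of 41597 had it (0.00962%), and of other listed U on all matched transcripts past the minimum 146 of 501882 (0.0291%). None of 4669 other U within 25 nt of a member did.

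The highest of these stops was in PSMB2, a beta subunit of the proteasome core. At its position 952, 63 and 66 stops were counted without DMS in Na+ and K+ (E 26.3 and 25.3), 6 and 14 in K+ and Li+ in vitro, none listed in unstressed cells and 14 in starved cells. FKBP4, a co-chaperone of Hsp90, had 90 and 109 without DMS at position 2229, 7 and 9 in vitro, none listed in unstressed and 9 in starved cells. SNHG29 position 791 was the best counted, with 150 and 174 without DMS, 29 and 36 in vitro, 12 in unstressed and 69 in starved cells. It alone of the 9 was listed in all 6 libraries.

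The others had lower counts. TAF9B, a component of general transcription complexes, had 26 and 25 at position 2468 without DMS, none listed and 3 in K+ and Li+, and none listed and 11 in unstressed and starved cells. NIP7, a ribosome assembly factor, had 17 and 17 at position 1353, with 3 in Li+, 3 in unstressed cells and 6 in starved ones. PRR13 had 20 and 28 at position 234, with 3 in Li+ and none listed in the other DMS libraries. Of the 9, 4 were listed with K+, 9 with Li+, 3 in unstressed cells and 6 in starved ones.

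As a description of the flanking sequence, all 1200 occurrences on 861 transcripts past the minimum were grouped by how many of the 5 facing positions beside the 7-nt loop could pair (G-U included). This grouping was chosen after the values were seen, and it uses the E values that chose the members, so nothing is tested by it. Mean E at the third base, averaged over both libraries without DMS and with unlisted positions as 0, was 0.108 with 1 pair (277 sites), 0.199 with 2 (429), 0.475 with 3 (336), 0.724 with 4 (133) and 3.82 with 5 (25). The means of the surrounding 16 positions ran only from 0.554 to 1.17. The 25 sites with 5 pairs held 5 of the 9 members, those of PSMB2, TAF9B, FKBP4 and SNHG29 among them, so their mean contains values the rule chose. Without these 5 it was 1.29, and without the highest site alone 2.90. The 1.17 of the positions around the sites is over all 25, these 5 included. The median over the 25 was 0.612.

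Sites with C, G or T in place of the A at the sixth base of the motif were described from the same values. With 5 pairs their mean E was 0.230 over 87 sites, and over 1 to 4 pairs it lay between 0.213 and 0.251. None of these sites was a member, so their means hold no value chosen for its height, unlike those of the sites with A. Among sites with A and 5 pairs that were not members, SCP2, a sterol carrier protein, came closest, with 10 and 11 stops at position 1434 (E 8.89 and 8.94) and none listed with DMS. FBXO5, an inhibitor of the anaphase-promoting complex, had 11 and 9 at position 230.

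**Figure D3:**
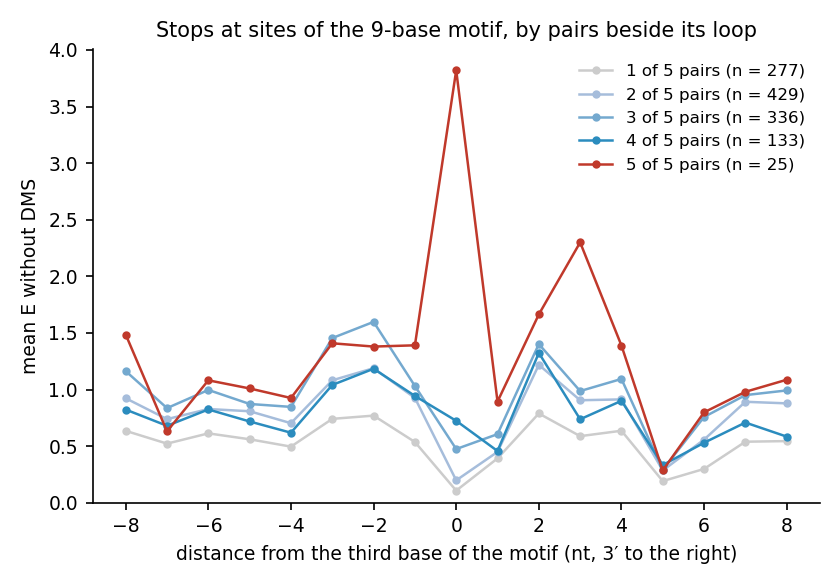
The horizontal axis is the distance in nt from the third base of the 9-base motif and the vertical axis the mean E without DMS over all its occurrences, 1 line for each number of pairs beside the loop. At the third base the line for 5 pairs is at 3.82 (25 sites, 5 of them members chosen for high E; 1.29 without these 5) and those for 1 to 4 pairs lie between 0.108 and 0.724.

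The stop at the motif was also compared with its neighbouring U inside each library, which takes transcript coverage and the overall share of U stops out. At the 9 member sites the third base received 426 of 1239 U stops within 25 nt without DMS in Na+ (34.4%) and 472 of 1333 in K+ (35.4%), the libraries used for the choice. In the libraries not used for it, the shares were 25.6% with K+ (45 of 176), 26.3% with Li+ (81 of 308), 25.0% for unstressed cells (18 of 72) and 31.5% for starved ones (112 of 355). At the 20 sites with 5 pairs that were not members, the shares were 9.36% and 10.7% without DMS, and with DMS 0 of 45, 4 of 77, 0 of 3 and 4 of 37 in the same order. At non-member sites with up to 3 pairs they ran from 2.97% to 4.05% over the 6 libraries. SNHG29 alone gave 29 of the 45, 36 of the 81, 12 of the 18 and 69 of the 112.

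Members near a transcript end formed the other set that stood apart. Within 30 nt of the annotated end lay 35 of 1102 matched members (3.18%, 2.29 to 4.39) and 0.339% of the other listed U of the same transcripts. AATAAA, the signal that directs cleavage and polyadenylation, stood in the 30 nt before 8 of these 35 and before 39 of the 145 other U as near to an end. Wherever they lay, 1.45% of members and 1.37% of other U had it. Of the prominent members 8 of 65 (12.3%) lay within 30 nt of the end, 6 of them after AATAAA. Most of these 8 had few neighbours within 25 nt listed in both libraries without DMS. The number ran from 0 at MARCHF5 and RPL31P11 to 9 at SH3BGRL, with 12 at KIAA1191 and 11 at BOP1.

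On the U scale, where a count is divided by the mean count of all U of its transcript, 4 of these stops that had at least 20 counts in all 6 libraries were higher with DMS than without. That minimum favours stops that are high with DMS: of all 62 members past it, 13 were at least 2-fold higher, and 6 of these 13 were known to lie farther from an end. KIAA1191 position 2814, 14 nt from the end, had 51 and 55 stops without DMS, 62 with K+, 80 with Li+, 51 in unstressed and 201 in starved cells. SH3BGRL position 2051 had 45 and 46, then 33, 49, 23 and 85 in the same order. THOC6, a subunit of the THO mRNA export complex, had 46 and 43, then 40, 62, 26 and 112 at position 1409. ZHX1, a zinc finger and homeobox protein, had 102 and 134, then 79, 102, 111 and 528 at position 5189. On that scale the level in the DMS libraries (geometric mean) was 3.41 to 6.81 times that without DMS at these 4. MARCHF5, a mitochondrial ubiquitin ligase, and PREB, which activates the SAR1 GTPase of COPII vesicles, had lower counts, 12 to 42 at position 3916 and 7 to 18 at position 2154.

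At RPS10 position 778, in a ribosomal protein mRNA with AATAAA shortly before the stop and with a local ratio of 1.42, counts were 94 and 101 without DMS, 24 and 28 in vitro, 7 in unstressed and 55 in starved cells. On the U scale these were levels of 9.82 and 9.55, then 14.1, 11.8, 6.76 and 12.2, a smaller difference than at the 4 above. Farther from an end, the highest level with over without DMS among the 62 members past that minimum was at LRRFIP1 position 4010, with 71 and 78 stops without DMS, 163 and 256 in vitro, 216 in unstressed and 382 in starved cells, 9.07-fold on the U scale. Its stop precedes a run of A and is the base in capitals.
LRRFIP1: cagagtgagacactgTctctaaaaaaaaaa
It lies in the 3′ UTR at chr2:238674059-238674088 (plus).

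Over all 963, the surrounding sequence was compared with that of the other listed U of the same transcripts. The nucleotide 3′ of the stop, the last one copied, was A at 36.8% (33.8 to 39.9) of members and at 25.6% of other U, G at 37.5% and 36.3%, U at 20.9% and 29.4%, and C at 4.88% and 8.66%. On the 5′ side C preceded 30.7% (27.9 to 33.7) against 25.0%. A pattern of 4 runs of at least 2 G in the 45 nt ending at the stop was found at 40 members (4.15%) and at 5.92% of other U, and one with at least 3 G at none of 963 and at 0.0793%. TTTT over the stop was found at 7.68% and 10.8%, ATTTA at 1.35% and 1.69%, AATAAA within 30 nt on either side at 7.27% (5.79 to 9.08) and 4.00% (6.25% for other U within 25 nt of a member), TGTANATA within 30 nt at 1.45% and 0.945%, and TNTAG or TNTAA with the stop at the third base at 6.13% and 4.49%. Predicted folding of the 60 nt ending at the stop had a median energy of -8.6 kcal/mol (-8.9 to -8.2) against -9.0, with -8.2 for other U within 25 nt of a member and -10.3 (-12.2 to -8.6) at 52 prominent members. For the 60 nt after the stop it was -7.4 (-7.6 to -7.1) against -8.6, and -7.4 for other U within 25 nt of a member. Predicted to be paired were 49.6% of the members and 49.7% of other U.

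Along the mRNA, 667 matched members (60.5%, 57.6 to 63.4) lay in 3′ UTRs, 339 (30.8%) in coding sequence and 56 (5.08%) in 5′ UTRs. The other listed U of the same transcripts lay there in 52.9%, 43.3% and 2.47%, and those within 25 nt of a member in 69.4%, 25.7% and 3.39%. Exon junctions within 5 nt were about as frequent (2.99% against 3.05%).

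By gene group, described by counts, a member was found on 18 of 83 cytosolic ribosomal protein transcripts (21.7%, 14.2 to 31.7; 123 members), and on 10.4% of all transcripts past the minimum. For oxidative phosphorylation it was 10 of 83 (77 members, 35 of them on NDUFC2), for hnRNP and SR splicing proteins 6 of 27, for translation factors 5 of 44 and for cytoskeletal genes 5 of 25, all tubulins. Proteasome genes had 3 of 40 (PSMB2, PSMD4 and PSMF1), chaperones 2 of 36 (HSP90AB1 and HSPA1A), matrix genes 2 of 5 (COL4A2 and FN1), glycolysis 1 of 13 (PGAM1), histones 1 of 9 (H3-3B) and tRNA synthetases 0 of 14. Members of 1 transcript share its mean and are not independent.

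With DMS the members lost height on the transcript scale. Median E was 11.4 and 11.3 without DMS, by choice, and 2.74 after refolding with K+ (732 members on transcripts past the minimum there), 2.71 with Li+ (1092), 1.61 for unstressed cells (518) and 3.37 for starved ones (770). Still at E of 10 or more were 4.92%, 4.58%, 2.90% and 7.01%. At the same time U received 23.3% and 24.1% of all listed stops without DMS but 2.63% to 5.58% with it, and A and C together 78.2% to 88.4% instead of 51.1% and 52.4%, so E fell at most U, with exceptions such as LRRFIP1 position 4010 and ZHX1 position 5189. The prominent members had medians of 2.96, 3.87, 1.33 and 4.92 in the DMS libraries in the same order.

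**Figure D4:**
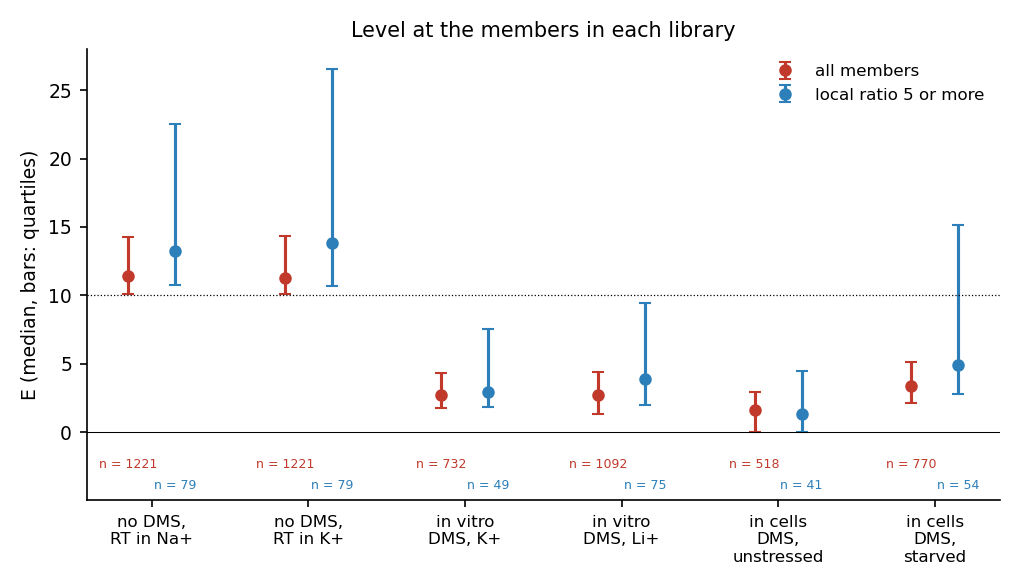
The vertical axis is E and the horizontal axis the 6 libraries; points are medians and bars quartiles over all members (red) and over those with a local ratio of 5 or more (blue), with the number measured below. Medians of all members are 11.4 and 11.3 without DMS and between 1.61 and 3.37 in the 4 DMS libraries.

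On the U scale, members with at least 40 counts without DMS had a median log2 level with over without DMS of -0.32 with K+ (651 members; all U -0.07), -0.34 with Li+ (704; -0.12), -0.66 for unstressed cells (510; -0.62) and -0.16 for starved ones (623; -0.06). At least 2-fold lower were 22.3% of members in K+ against 21.4% of all U, 18.3% against 13.0% in Li+, 41.4% against 35.4% in unstressed cells and 12.0% against 19.2% in starved ones. With a minimum of 10 counts without DMS, medians for members and all U were -0.30 and -0.42 with K+ and -0.38 and -0.79 with Li+. They were -0.65 and 0.28 for unstressed cells and -0.17 and -0.31 for starved ones. Outside unstressed cells, the side on which the median of the members lay thus depended on the minimum. Members were chosen for high values without DMS and all U only by count, so some fall in a further library follows from the choice. Next to other U within 25 nt, a member was 1.99 and 1.92 times higher without DMS and 1.47, 1.41, 1.26 and 1.58 times in the DMS libraries, in the order K+, Li+, unstressed, starved (medians).

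The next comparisons use only libraries the rule did not use, as log2 ratios of E with 1 count added, at positions with at least 10 counts in the pair. In vitro, K+ over Li+, the median over 527 members was -0.11 (order-statistic interval -0.15 to -0.04), against -0.05 over all U and -0.09 over other U within 25 nt of a member. At least 2-fold higher in K+ were 26 members (4.93%; 5.68% of all U), and at least 2-fold lower 20 (3.80%; 6.60%). The share higher is near that of all U and the share lower is below it (interval 2.47 to 5.79). That interval takes members as independent, which members of 1 transcript are not. On the U scale the medians were -0.01 for members, 0.07 for all U and 0.12 (0.03 to 0.32) for 41 prominent members, with 33 members at least 2-fold higher (6.26%; 8.14% of all U) and 13 at least 2-fold lower (2.47%; 4.90%). The highest ratio of those with at least 20 counts in both was at position 423 of RPS23, a protein of the small ribosomal subunit, with 45 and 42 counts (1.51-fold, exact interval 0.969 to 2.36). The lowest was at MTRNR2L1 position 1377, with 20 and 48 (0.519-fold, 0.292 to 0.892).

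In cells, most members with at least 10 counts summed over both libraries had higher E after starvation, some of them unlisted in unstressed cells. Their median lay above that of other U. The median log2 ratio of starved over unstressed cells was 0.99 (0.89 to 1.12) over 424 members, 379 of which were above 0, against 0.61 over all U and 0.57 over nearby U. At least 2-fold higher were 212 members (50.0%; 38.3% of all U) and at least 2-fold lower 4 (0.943%; 5.68%). A position could pass the minimum of 10 counts through the deeper starved library alone, and of the members on transcripts past the minimum 72.2% were listed in unstressed and 89.9% in starved cells. With a minimum of 40 counts the median was 1.02 over 212 members and 0.68 over all U. That minimum is also on the sum of both libraries, so the starved one alone could again pass a position. U took 2.63% of stops in unstressed cells and 5.58% in starved cells, and the libraries held 12999691 and 24014417 stops. On the U scale, which leaves that shift out, the median of the members was 0.32 (0.26 to 0.43), against -0.04 for all U and -0.08 for nearby U. There 120 members were at least 2-fold higher (28.3%, 24.2 to 32.8; 24.9% of all U), a share near that of all U, and 19 at least 2-fold lower (4.48%; 16.8%). Depth and the different share of U stops moved together with starvation and cannot be told apart from it with 1 library each.

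**Figure D5:**
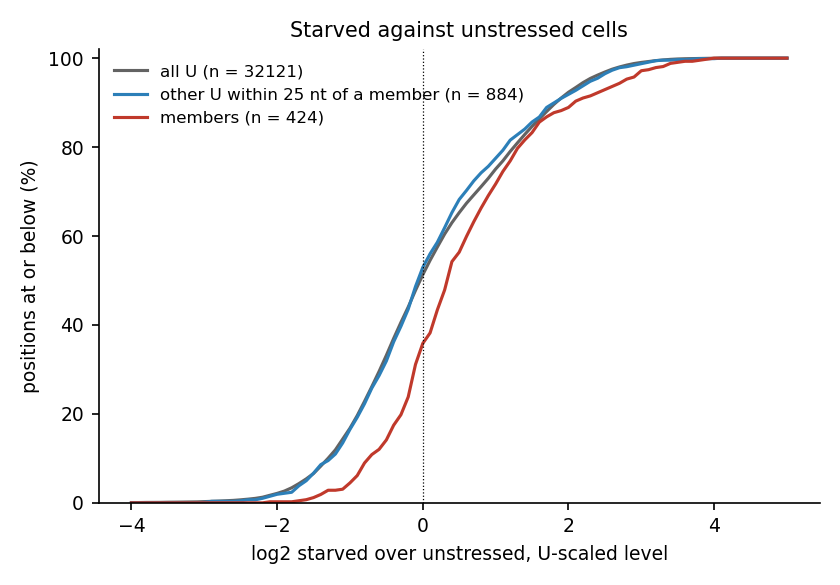
The horizontal axis is the log2 ratio of starved over unstressed cells on the U scale and the vertical axis the percentage of positions at or below it, for 424 members (red), 884 other U within 25 nt of a member (blue) and 32121 U in all (grey). The curve of the members lies to the right of both others around 0, with medians of 0.32, -0.08 and -0.04.

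Of 57 members with at least 20 counts in both cell libraries, MTRNR2L1 position 1519 had one of the largest rises, with 25 counts in unstressed and 195 in starved cells (E ratio 3.30, exact interval 2.17 to 5.22). MTRNR2L1 encodes a humanin-like peptide and resembles mitochondrial ribosomal RNA. Against the trend, position 2364 of PPP1CB, a catalytic subunit of protein phosphatase 1, had 107 in unstressed and 68 in starved cells (0.234, 0.170 to 0.321), after 40 and 53 without DMS, 14 in K+ and 25 in Li+. It was the lowest of the 57.

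Unstressed cells lay below RNA refolded in K+. Over 367 members the median log2 ratio was -0.60 (-0.70 to -0.49), against -0.27 for all U and -0.30 for nearby U. At least 2-fold lower were 109 (29.7%; 21.5% of all U) and at least 2-fold higher 10 (2.72%; 8.16%). On the U scale the medians were -0.12 for members and 0.21 for all U, with 62 members at least 2-fold lower (16.9%; 12.9% of all U) and 31 at least 2-fold higher (8.45%; 17.3%). The unstressed library enters this comparison and the previous one, so the opposite shifts in them are not independent. In bulk RNA a stop on few molecules at full strength and one on many at low strength cannot be told apart.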

How the data were processed

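Per the labels and the study's methods, RNA fragments were reverse transcribed with or without DMS treatment, and stalled cDNAs were size-selected, circularised, sequenced and de-duplicated. Reads were aligned without mismatches by Bowtie to hg19 transcripts, as the submitters' processing notes and methods name them. The deposited tables give, for each transcript position, the stop count (listed from 3) and a ratio, both made by the authors. No source used here defines the ratio, but its values fit that count over the transcript's mean for nucleotides with that same base. The count was used here, and the ratio only in alternatives.

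Transcript length was the highest listed position over the 6 tables. Members, motifs, gene lists and named positions were chosen with earlier results of these data known. GENCODE models on GRCh37 were found by sequence for 10409 of 11031 transcripts (94.4%) that had 15 or more listed bases; 119 members stayed unmatched. Named positions were the 8 with the highest E, the 3 largest and 3 smallest of each ratio with at least 20 counts, the strongest on the 4 transcripts with most members and those at the limits of the rule; those of the motif and of transcript ends were chosen after their values were seen, and some named by the rule are given by range only or are not reported here. Shares have Wilson intervals, count ratios exact conditional ones. The selection was run on simulated single stops over an even background, unlike the clusters and uneven coverage here. It does not show how the rule performs on such transcripts. ViennaRNA 2.7.2 gave the predicted folds, and matplotlib 3.10.9, scipy 1.17.1, pandas 2.3.3 and numpy 2.4.6 ran under Python 3.11.15.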

Additional observations from a re-analysis of the deposited data

How the results depend on the processing

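No median over all members changed sign when 1 choice was changed at a time. The medians over all U did on the U scale in all 3 comparisons between DMS libraries, as did that of prominent members for K+ over Li+. Relative to all U the prominent members lay 0.02 above all U for K+ over Li+ and 0.04 above for DMS over no DMS, where all members lay below. The number of members, 1221, depended on the limits: it was 18555 at E of 5, 162 at E of 20, 761 with the narrower agreement tried, 560 and 283 with a transcript minimum of 2 and 5 stops per nucleotide, and 655 with at least 20 counts at the stop. The other 5 alternatives kept it within 1.5 times. For K+ over Li+ the median log2 moved to -0.17 at E of 20, to -0.0063 on the U scale and to -0.022 for prominent members. For starved over unstressed cells it was 0.89 at E of 5, 0.32 on the U scale, 0.85 with unlisted positions taken as 2 counts and 1.28 for prominent members, and it lay above that of all U in all 19 alternatives. For unstressed cells over K+ it was -0.36 at E of 5, -0.71 at E of 20, -0.12 on the U scale and -0.79 for prominent members. For DMS over no DMS, averaged over the DMS libraries (-2.29), it was -2.67 at E of 5, -2.15 at E of 20, -0.46 on the U scale, -1.98 with unlisted positions as 2 counts, -2.04 for prominent members and -2.36 without the 10 transcripts with most members. The surplus of members in 3′ UTRs was 12.6 percentage points, not 7.6, over listed U of all transcripts. The cause of these moves was not tested. The prominent members, the 10 transcripts left out, those without a symbol left out and the minimum of 40 counts were chosen after seeing the data. No paired analysis was possible because each condition had 1 library and no replicate numbers. Depth limits single positions: the median count was 24 without DMS (1221 members) and 5 in unstressed cells (the 518 measured there).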

Other observations

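Members on transcripts without a gene symbol, or of mitochondrial likeness, form a small group apart. 33 members lay on 4 transcripts without a symbol, and the 20 nt after the stop were found exactly in the mitochondrial genome for 7 of 1142 members, 4 of them on MTRNR2L1. MTRNR2L1 is a near copy of mitochondrial sequence, so its counts are uncertain. RPL31P11, a ribosomal protein pseudogene, had 292 and 278 stops at position 391 without DMS, 53 and 76 in K+ and Li+, 27 in unstressed and 373 in starved cells. FAM107A position 2117 had 371 and 530 without DMS, 457 and 679 in vitro, 430 in unstressed and 829 in starved cells. ETF1, the translation termination factor eRF1, had a prominent stop at position 2301 (local ratio 19.1), with 113 and 144, then 46, 70, 39 and 91 in the same order. EIF3A, a translation initiation factor subunit, had 39 and 49 at position 596 without DMS, 7 and 5 in vitro and none listed in cells.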
